A study of Mus musculus with 4 samples.

Results

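Desmosomes and gap junctions are the adhesive and the communicating contacts between neighbouring cells. In a desmosome, the cadherins of the desmoglein and desmocollin families bind across the cell gap, plakoglobin and the plakophilins bind their tails, and desmoplakin ties the plaque to intermediate filaments. A gap junction is a field of channels built from connexins, through which ions and small molecules pass from cell to cell. Desmosomes are typical of epidermis and heart muscle, while dermal fibroblasts are coupled mainly by Cx43, the product of Gja1, and Cx26, the product of Gjb2, is best known from the inner ear and from activated epidermis.

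The 10 genes described are Perp, Dsp, Jup, Pkp1, Pkp2, Pkp4, Dsg2 and Dsc2 for the desmosome and Gja1 and Gjb2 for the gap junction. They were found as the probe sets that the platform annotation assigns to exactly 1 of these genes, which gave 27 probe sets of 45101 in the table. No probe set naming several genes held one of them. The genes were chosen by their knockout and wild-type values on these same arrays, so the differences between the genotypes are a description, with no test, and support nothing by themselves.

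The cells were primary dermal fibroblasts from mice at postnatal day 1, untreated and cultured for 48 h. One genotype was adam9 -/-, which lacks the membrane-anchored metalloprotease ADAM9 (n = 2 isolations, 1 array each), and the other was adam9 +/+, the wild type (n = 2 isolations, 1 array each). The mouse strain, the deleted part of the gene and the number of animals behind an isolation are not stated in the labels, so the spread between arrays may be technical. Their number limits the precision of every value.

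All values below are the deposited values per probe set, taken as log2, and every difference is knockout minus wild type on that scale. No detection calls were used, so a low value has no stated background, and a fold difference against it depends on that background. Over the 45037 probe sets that are not array controls, the 40th percentile of the mean over the arrays was 4.17. Of the 27 probe sets, 17 lay above it and 10 did not, among them all 6 of Dsg2 and the 1 of Pkp1. Probe sets bind with different strength, so the differences are taken between arrays within a probe set. A value called low or high is only set against the spread of all probe sets.

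Promoter sequences are shown for the genes at the centre of the comparison that have an entry in the RefSeq table of build GRCm38.p6, which held 5 of the 10 genes. Each is the 250 bases before the annotated start, read 5′ to 3′ on the gene's own strand. Dsp lies at chr13:38151044-38151293 on the plus strand, Gjb2 at chr14:57104703-57104952 on the minus strand and Gja1 at chr10:56377050-56377299 on the plus strand. Capitals mark the matches to 4 motifs searched on both strands, the GC box GGGCGG, the AP-1 site TGANTCA, the E-box CAGGTG that Snail and Zeb repressors bind, and the TATA box TATAAA.
Dsp: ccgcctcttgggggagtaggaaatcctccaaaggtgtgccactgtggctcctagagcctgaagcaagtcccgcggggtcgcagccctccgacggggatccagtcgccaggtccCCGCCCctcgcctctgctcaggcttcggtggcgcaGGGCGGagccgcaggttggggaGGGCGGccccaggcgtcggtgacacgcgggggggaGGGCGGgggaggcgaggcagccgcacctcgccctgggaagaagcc
Gjb2: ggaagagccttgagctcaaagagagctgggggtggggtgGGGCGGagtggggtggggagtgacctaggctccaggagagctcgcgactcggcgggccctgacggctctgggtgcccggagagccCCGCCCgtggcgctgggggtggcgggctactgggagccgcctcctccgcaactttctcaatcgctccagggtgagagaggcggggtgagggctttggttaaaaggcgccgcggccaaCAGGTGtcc
Gja1: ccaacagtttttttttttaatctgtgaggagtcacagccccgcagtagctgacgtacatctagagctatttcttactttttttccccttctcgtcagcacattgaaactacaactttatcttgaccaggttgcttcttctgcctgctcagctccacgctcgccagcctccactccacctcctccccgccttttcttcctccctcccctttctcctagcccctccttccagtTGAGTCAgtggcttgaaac

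The Dsp window held 4 GC boxes and the Gjb2 window 2, while 32.7% of all 32851 windows of this length held at least 1. The Gjb2 window also held 1 E-box CAGGTG, whose first base lay 9 bases before the start, as 17.2% of all windows did. The Gja1 window held 1 AP-1 site beginning 19 bases before the start, a motif found in 6.75% of windows, and no GC box. The TATA box letters occurred in none of these 3 windows and in 12.4% of all windows. G and C made up 72.4% of the Dsp window and 69.2% of the Gjb2 window, against a median of 52.4% over all windows. These are matches of letters, and no binding was measured.

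Perp encodes a small membrane protein that takes part in desmosome assembly and is a transcriptional target of p53. Its probe set 1416271_at, the only one it has, read 5.28 and 3.04 in knockout isolations 1 and 2, against 8.10 and 7.90 in wild-type isolations 1 and 2. Both knockout arrays were lower than both wild-type arrays, and the knockout arrays differed from each other by 2.24. The knockout mean was 4.16 ± 1.58 and the wild-type mean 8.0 ± 0.14 (SD, n = 2 each), a difference of -3.84 (SE 0.74, limma), or 14.3-fold. With knockout isolation 1 left out the difference was -4.96, and with knockout isolation 2 left out it was -2.72.

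Dsp encodes desmoplakin, the plaque protein that anchors intermediate filaments. Its probe set 1435493_at read 3.06 and 3.55 in the knockout isolations, against 4.84 and 6.75 in the wild-type isolations. The genotypes did not overlap, and here the wild-type arrays were the ones that stood apart from each other, by 1.91. The difference was -2.49 (SE 0.65), or 5.62-fold, and without wild-type isolation 2 it was -1.53. Probe set 1435494_s_at, which is annotated to the same transcript and so is no independent measurement, read 3.10 and 3.28 in the knockout, against 4.56 and 6.57 in the wild type. The third, 1427610_at, read 2.98 and 3.12 in the knockout, against 3.18 and 3.02 in the wild type. It lay under the 40th percentile and its groups overlapped, so the probe sets of Dsp did not give the same difference.

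Gjb2 encodes Cx26. Its single probe set 1423271_at read 7.69 and 9.29 in the knockout isolations, against 4.15 and 4.01 in the wild-type isolations. Both knockout arrays were higher than both wild-type arrays, and the gap between the knockout arrays was 1.60. The knockout mean was 8.49 ± 1.13 and the wild-type mean 4.08 ± 0.096 (SD, n = 2 each), a difference of 4.41 (SE 0.53), or 21.2-fold. Leaving out 1 array at a time gave differences from 3.61 to 5.21.

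Gja1 encodes Cx43 and had 6 probe sets. The brightest, 1437992_x_at, read 10.36 and 10.78 in the knockout isolations, against 10.78 and 10.52 in the wild-type isolations. The genotypes overlapped, with knockout isolation 1 lowest and knockout isolation 2 next to wild-type isolation 1. The difference was -0.07 (SE 0.20), and its 95% interval from the limma fit ran from -0.59 to 0.44. Probe set 1415800_at read 9.66 and 10.07 in the knockout, against 10.17 and 9.89 in the wild type. Over all 6 probe sets the differences ran from -0.17 to 0.22 and every one overlapped between the genotypes. In 5 of the 6, knockout isolation 1 was the lowest array, though in 1438973_x_at only at 5.378 against 5.383 in wild-type isolation 2. Probe sets 1415800_at and 1415801_at are annotated to the same transcript, so the 6 are not independent measurements.

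**Figure D1:**
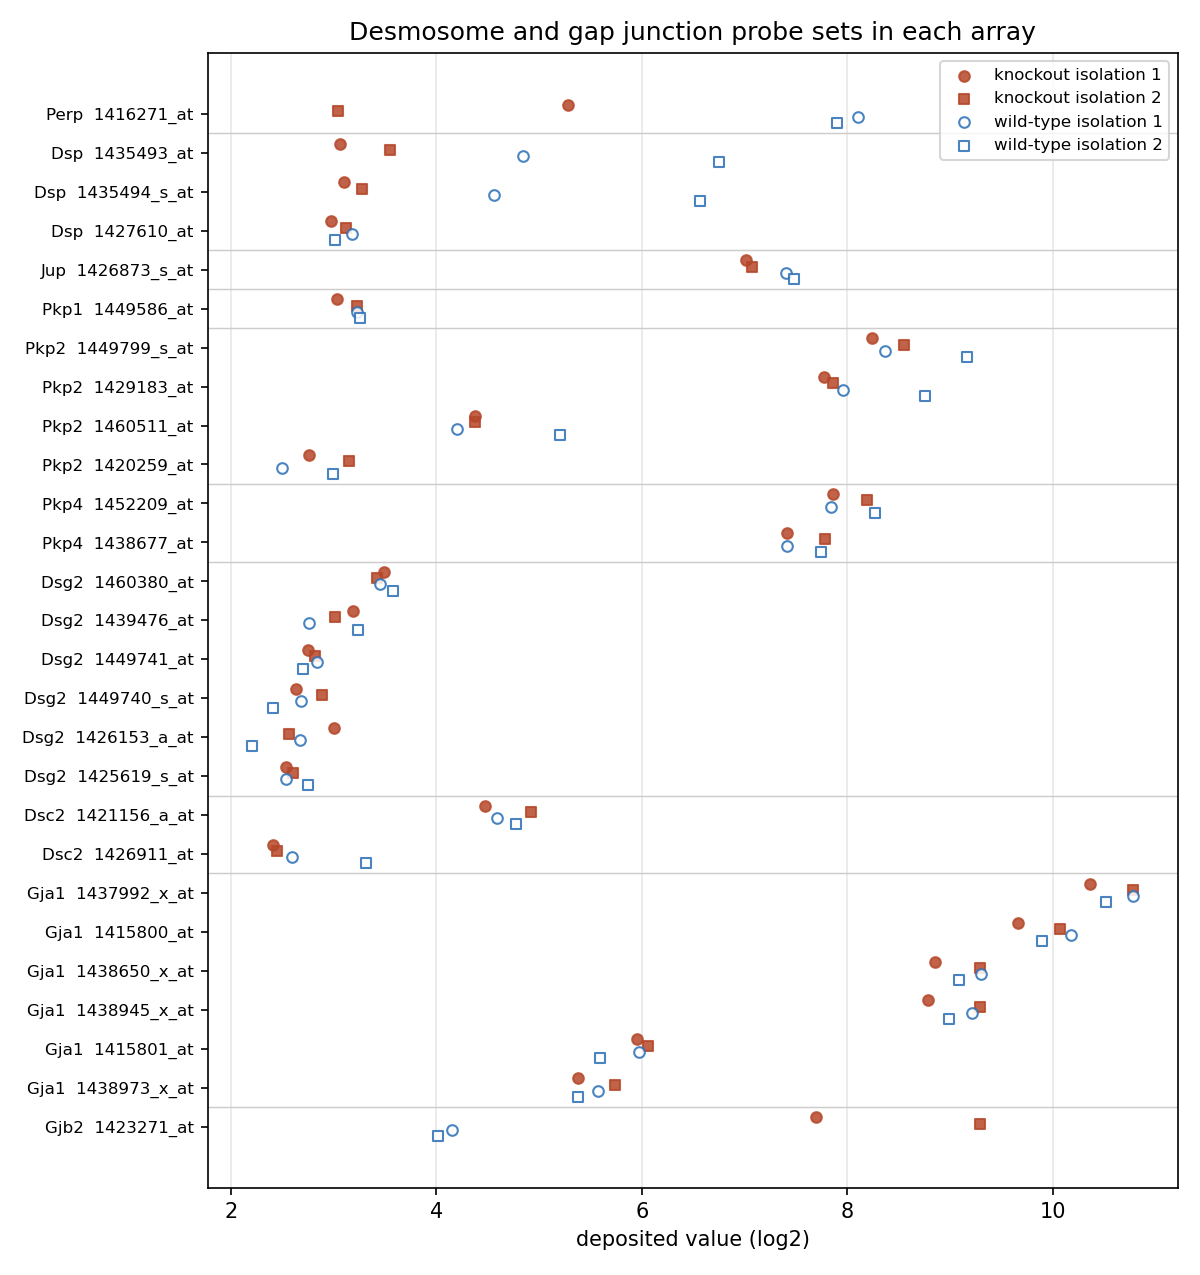
Deposited value (log2, horizontal axis) of each of the 27 probe sets in each array, filled red for the 2 knockout isolations and open blue for the 2 wild-type isolations. Perp and 2 of the 3 Dsp probe sets lie lower in both knockout arrays, Gjb2 lies higher in both, and the 6 Gja1 probe sets overlap.

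The other plaque genes differed less. Jup encodes plakoglobin, which also serves in adherens junctions. Its probe set 1426873_s_at read 7.01 and 7.07 in the knockout isolations, against 7.41 and 7.48 in the wild-type isolations. The genotypes did not overlap and the arrays of each genotype lay close together, so the difference of -0.40 (SE 0.12), or 1.32-fold, was larger than the gap within either genotype. Leaving out 1 array at a time gave -0.43 to -0.36.

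Pkp2, the plakophilin of heart muscle desmosomes, had 4 probe sets. Probe set 1449799_s_at read 8.24 and 8.55 in the knockout, against 8.36 and 9.16 in the wild type. Probe set 1429183_at read 7.78 and 7.86 in the knockout, against 7.96 and 8.75 in the wild type. Wild-type isolation 2 was the highest array in both, as it was in 1460511_at, which read 4.38 in each knockout array, against 4.20 and 5.20 in the wild type. The differences were -0.37, -0.54 and -0.32, and without wild-type isolation 2 they were 0.03, -0.14 and 0.18. The dim probe set 1420259_at, annotated to the same transcript as 1449799_s_at, read 2.76 and 3.15 in the knockout, against 2.50 and 2.99 in the wild type.

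Pkp4, a relative of p120 catenin found at adherens junctions as well as desmosomes, overlapped between the genotypes in both of its probe sets. Probe set 1452209_at read 7.86 and 8.19 in the knockout isolations, against 7.84 and 8.27 in the wild-type isolations, and 1438677_at read 7.41 and 7.78 in the knockout, against 7.42 and 7.75 in the wild type. In each probe set isolation 2 was the higher one in both genotypes, and the differences between genotypes were -0.03 and 0.02. The labels do not say whether isolations of the same number were made together, so nothing is read from that order. Pkp1, the plakophilin of epidermal spinous layers, read 3.03 and 3.23 in the knockout, against 3.23 and 3.25 in the wild type.

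Of the 8 probe sets of the desmosomal cadherins, 1 had a mean above the 40th percentile. The 6 probe sets of Dsg2, the desmoglein of simple epithelia and heart, read from 2.21 to 3.58 over all arrays, with differences of -0.07 to 0.35 and overlap in all 6. Some of the 6 are annotated to the same transcript and are not independent. Dsc2, its desmocollin partner, had the probe set above that percentile, 1421156_a_at, at 4.47 and 4.92 in the knockout, against 4.59 and 4.77 in the wild type, which overlapped. Its other probe set, 1426911_at, read 2.41 and 2.45 in the knockout, against 2.60 and 3.32 in the wild type. Those groups did not overlap, but the values lay under the 40th percentile. Nothing about the presence of these proteins follows from values without detection calls.

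**Figure D2:**
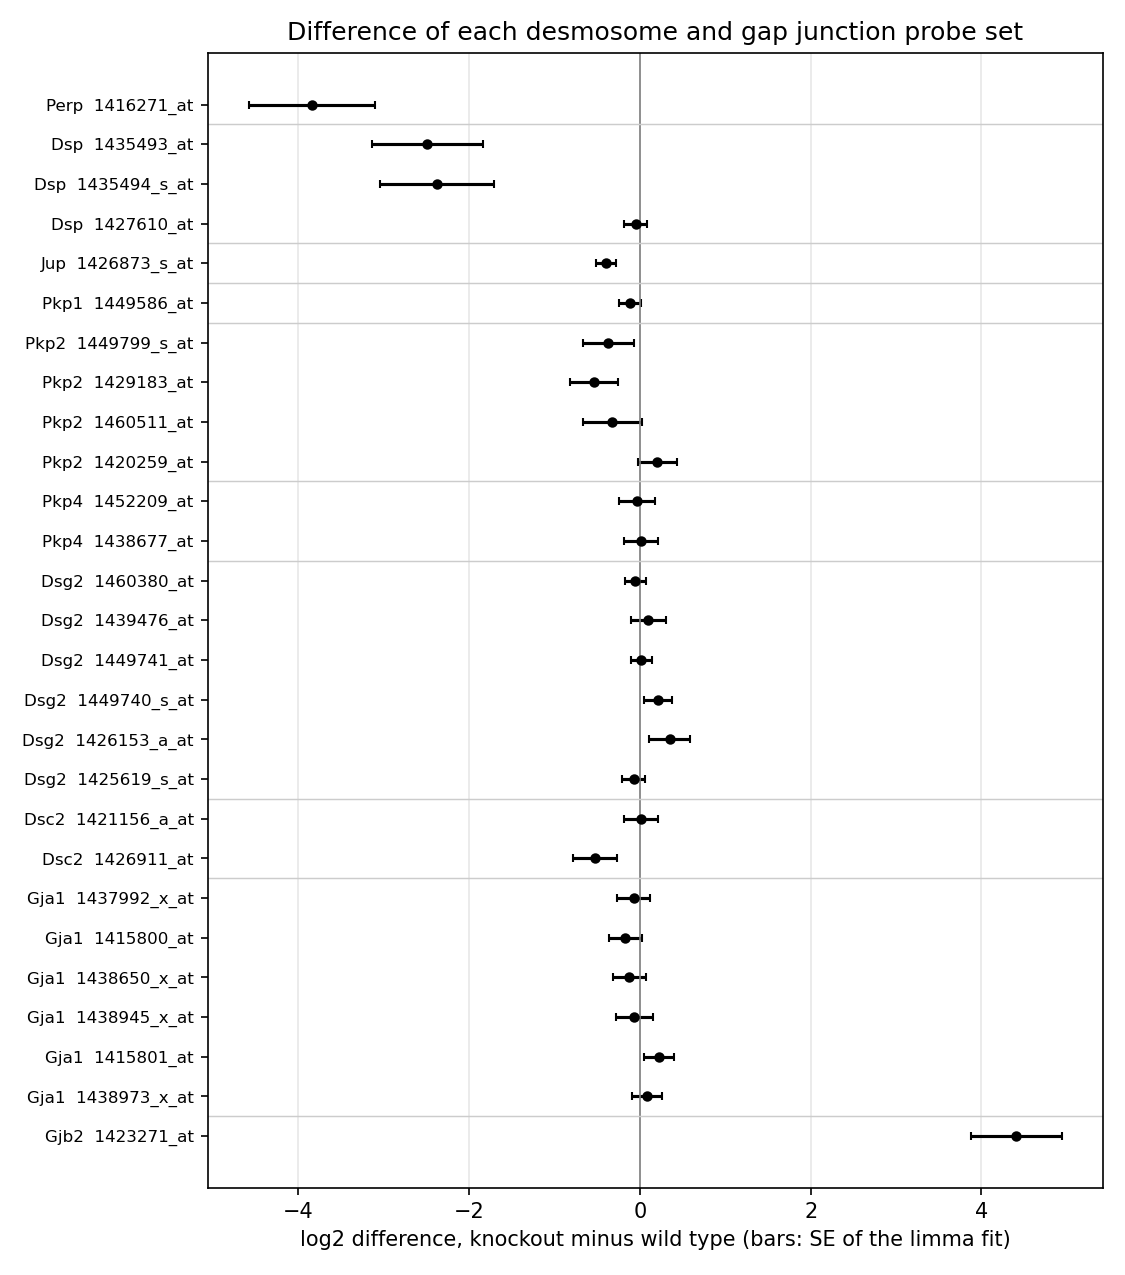
Log2 difference, knockout minus wild type, of each of the 27 probe sets (points) with the standard error of the limma fit (bars). Perp, 2 probe sets of Dsp and Gjb2 lie beyond 1 log2 unit, and the other 23 lie between -0.54 and 0.35.

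Counted over the family, 4 of the 27 probe sets differed by more than 1 log2 unit, 3 of them lower in the knockout and 1 higher, where 2.54% of all probe sets did (1.11% lower and 1.43% higher). The genotypes did not overlap for 7, with 6 lower and 1 higher in the knockout, where 39.5% of all probe sets did not overlap (20.0% lower and 19.5% higher). The difference was larger than the gap between the arrays of both genotypes for 5, namely Perp, 2 of Dsp, Jup and Gjb2, where 26.9% of all probe sets met this. The median difference was -0.06 over the 27 and -0.0027 over all probe sets. No probe set passed limma's test at an adjusted p under 0.05 (Benjamini-Hochberg over all 45037), where 0.0311% of probe sets passed (0.0244% lower and 0.00666% higher), and the smallest adjusted p was 0.152, that of Gjb2. By the unadjusted limma p, 5 were under 0.05, as were 9.00% of all probe sets. Since the genes were chosen for this contrast, nothing is read from these counts.

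The genes of one junction type did not all differ in the same direction or by a like amount. Among the desmosome genes, Perp and 2 of the 3 Dsp probe sets, both of 1 transcript, stood lower in the knockout by over 1 log2 unit, and the third Dsp probe set overlapped. Jup stood lower by 0.40 without overlap. Pkp2 had 1 of 4 probe sets and Dsc2 1 of 2 lower without overlap, and Pkp1, Pkp4 and Dsg2 overlapped in every probe set. Of the connexins, Gjb2 stood higher in the knockout, and Gja1 overlapped throughout.

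The remaining genes of these junctions were followed in lists that leave out the 10 genes. Of 11 further desmosome and cornified plaque genes, 8 were measured by 11 probe sets, and 0 passed limma's test in either direction (smallest adjusted p = 0.506). An unadjusted p under 0.05 was reached by 1 of the 11, against 9.00% of all probe sets. Their differences ran from -0.15 to 0.38, with a median of 0.05, and their values from 1.97 to 5.60. The genotypes did not overlap for 2 of the 11 (18.2%), 1 in each direction, where 39.5% of all probe sets did not overlap. The plakophilin Pkp3 had the largest difference by its brighter probe set, at 5.60 and 4.997 in the knockout, against 5.11 and 4.96 in the wild type. Its other probe set, 1418832_at, read 3.34 and 3.19 in the knockout, against 2.91 and 2.85 in the wild type. That was the 1 of the 11 with an unadjusted limma p under 0.05, and it lay under the 40th percentile. Cdsn, a corneodesmosome protein, read 4.63 and 4.90 in the knockout, against 4.61 and 4.64 in the wild type.

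Of 21 further connexins and pannexins, 15 were measured by 22 probe sets. None passed limma's test (smallest adjusted p = 0.441), and 3 of the 22 reached an unadjusted p under 0.05, against 9.00% of all probe sets. Gjc1, which encodes Cx45, stood higher in both knockout arrays. Its probe set 1449094_at read 8.93 and 9.72 in the knockout isolations, against 8.54 and 8.09 in the wild-type isolations, a difference of 1.01 (SE 0.32, limma adjusted p = 0.489) that was 0.62 without knockout isolation 2. Its other probe set, 1447787_x_at, read 8.96 and 9.55 in the knockout, against 8.49 and 8.01 in the wild type. The other 20 probe sets differed by -0.34 to 0.25, and Gja3, the second gene by size of difference, read 3.69 and 3.78 in the knockout, against 4.17 and 3.99 in the wild type.

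Proteins that bind or carry Cx43 gave a mixed picture. Of 17 probe sets for 10 genes, 0 passed limma's test (smallest adjusted p = 0.254). An unadjusted p under 0.05 was reached by 5, against 9.00% of all probe sets. The median difference was -0.13, and it ran from -0.06 to -0.04 with 1 array left out. Ccn3, a secreted matricellular protein reported to bind Cx43, stood higher in the knockout. Its probe set 1426852_x_at read 10.58 and 10.38 in the knockout isolations, against 8.67 and 7.51 in the wild-type isolations, a difference of 2.39 (SE 0.40, limma adjusted p = 0.254), and 1426851_a_at differed by 2.22. Without wild-type isolation 2 these differences were 1.81 and 1.40. The caveolin Cav2 read 9.25 in each knockout array, against 9.63 and 9.84 in the wild type, by its brighter probe set. Its other probe set, 1425955_at, overlapped between the genotypes and differed by 0.12. The scaffold Tjp1, which binds the tail of Cx43, read 8.88 and 9.12 in the knockout, against 9.06 and 9.23 in the wild type. Tjp1 was chosen after its values were seen.

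Intermediate filaments are the cables to which desmoplakin is tied. Of 30 probe sets for 17 genes, 0 passed limma's test (smallest adjusted p = 0.386). Only 1 of the 30 reached an unadjusted p under 0.05, against 9.00% of all probe sets. That was Krt18, a keratin of simple epithelia, whose probe set 1448169_at read 4.33 and 4.59 in the knockout isolations, against 6.29 and 8.31 in the wild-type isolations. The difference was -2.84 (SE 0.67, limma adjusted p = 0.386), and -1.83 without wild-type isolation 2. The wild-type arrays stood in the same order as for Dsp, with isolation 2 higher. Krt7 read 5.42 and 4.12 in the knockout, against 4.68 and 6.22 in the wild type, which overlapped. Over the 12 keratin genes other than Krt18, 19 probe sets differed by -0.68 to 0.39. Vim, the vimentin of fibroblasts, read 13.79 and 13.59 in the knockout, against 13.74 and 13.81 in the wild type, by its brightest probe set, and was chosen after its values were seen.

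**Figure D3:**
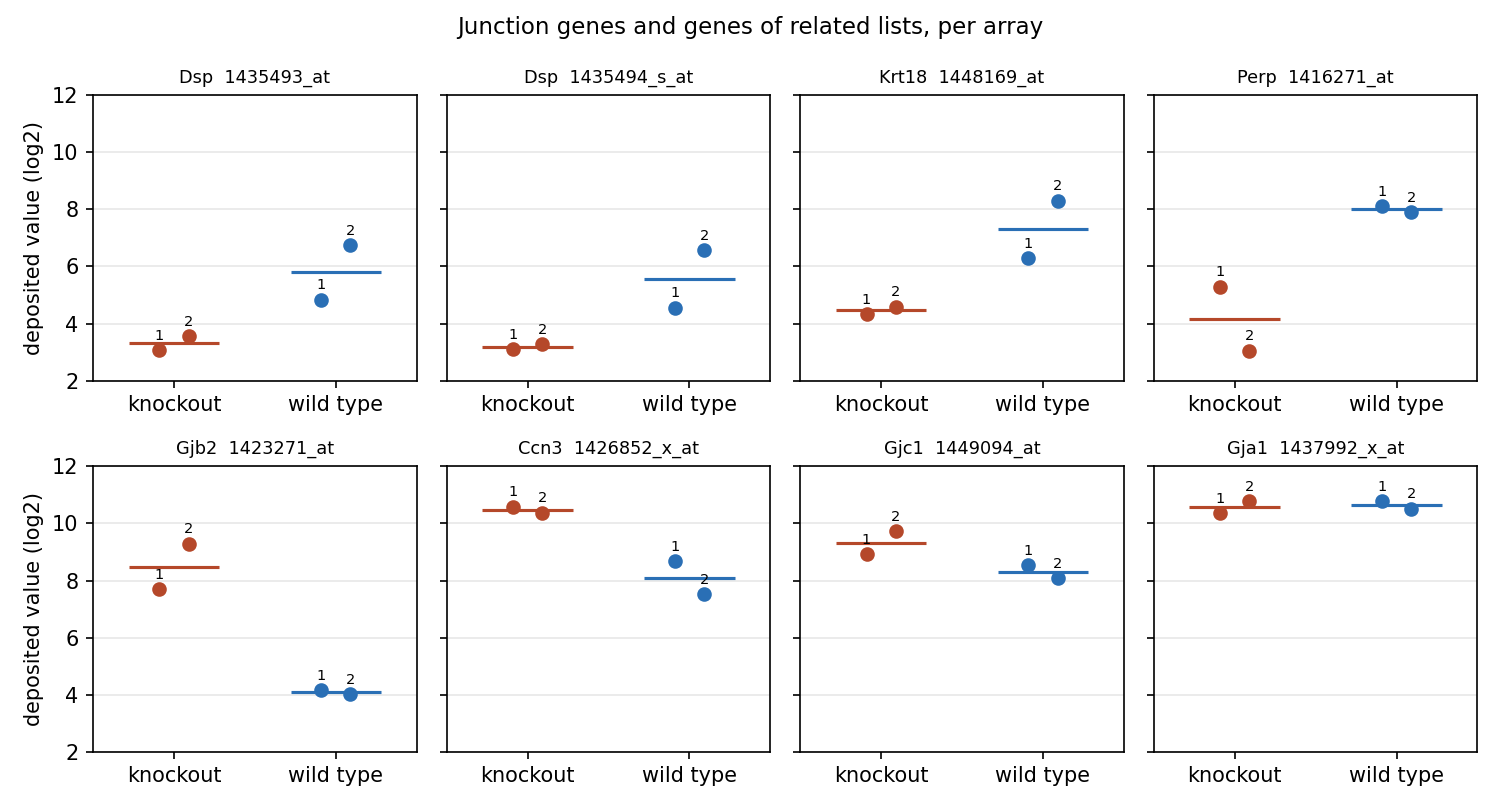
Deposited value (log2, vertical axis) by genotype for 8 probe sets, with each point an array marked by its isolation number and each line the mean of 2 arrays. Wild-type isolation 2 is above wild-type isolation 1 for both Dsp probe sets and for Krt18, while the wild-type arrays lie close together for Perp and Gjb2.

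Because Perp is a p53 target, 28 other genes of the p53 response were listed, and 25 were measured by 48 probe sets. None passed limma's test (smallest adjusted p = 0.410), and 11 of the 48 reached an unadjusted p under 0.05, against 9.00% of all probe sets. The difference was negative for 38 of the 48, with a median of -0.26 against -0.0027 over all probe sets, and the groups did not overlap for 23 that were lower in the knockout and 1 that was higher, where 20.0% and 19.5% of all probe sets did so. Pmaip1, which encodes the proapoptotic protein Noxa, read 7.03 and 5.26 in the knockout isolations, against 7.42 and 8.04 in the wild-type isolations. Its difference was -1.59 (SE 0.62, limma adjusted p = 0.564), and -0.70 without knockout isolation 2. Mdm2, the ubiquitin ligase that restrains p53, differed by -0.78 in its brightest probe set (limma adjusted p = 0.520). The difference was positive for 10 of the 48, among them 1433711_s_at of Sesn1 (0.31), chosen after its values were seen. Several genes had more than 1 of the 48 probe sets, so the counts are not spread evenly over the 25 genes. A lower median of p53 targets and senescence genes was among the results known when this list was written. The part of p53 in the difference of Perp was not tested.

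The genes whose values ran most like those of 4 of the junction genes were found among 23578 probe sets above the 40th percentile, by Euclidean distance between values centred on their own mean over the 4 arrays. Nearest to Dsp were Nkain2 (distance 0.240), Krt18 (0.392) and Stmn2 (0.482), each with wild-type isolation 2 highest. Nearest to Perp were Myh11 (1.33), Zfp874a (1.45) and Uty (1.49). Nearest to Gjb2 were Xist (0.837), Dscc1 (1.47) and Rad51ap1 (1.74). Nearest to Gja1 were Lrig1 (0.0248), Zbtb44 (0.0280) and Prss37 (0.0294). With 4 arrays such distances sort genes by the size of the difference between genotypes and by the gaps between arrays of a genotype. Nothing about shared control follows from them.

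The label of the cells was checked against 7 lists of cell type markers. In these lists 0 probe sets passed limma's test. Those at an unadjusted p under 0.05 were 12 of 22 for smooth muscle and pericytes, 5 of 19 for Schwann cells and 3 of 27 for fibroblasts. They were 2 of 14 for melanocytes, 1 of 26 for macrophages, 0 of 41 for keratinocytes and 0 of 14 for endothelium. Over all probe sets the share was 9.00%. All 13 measured markers of dermal fibroblasts read above 8 in every array. Their mean was 12.40 and 12.33 in the knockout isolations, against 12.41 and 11.79 in wild-type isolations 1 and 2, so wild-type isolation 2 was the lowest. The proteoglycan Lum read 12.81 and 12.77 in the knockout, against 12.38 and 10.13 in the wild type, and the growth factor receptor Pdgfra 12.30 and 12.31 in the knockout, against 11.93 and 10.35 in the wild type. Fn1, chosen after its values were seen, went the other way. It read 12.90 and 13.16 in the knockout, against 13.76 and 13.73 in the wild type. By probe set 1437218_at it read 7.61 and 7.38 in the knockout, against 8.85 and 9.78 in the wild type. Over the 27 probe sets of the list, 21 differences were positive and 6 negative. Wild-type isolation 2 was also the array that stood apart for Dsp, Krt18 and Ccn3.

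Keratinocytes are the cell type richest in desmosomes. Of their 23 markers, 15 read under 5 in every array and 0 above 8 in every array. The mean was 4.43 and 4.56 in the knockout isolations, against 4.43 and 4.48 in the wild-type isolations. The hemidesmosome collagen Col17a1 read 3.37 and 3.60 in the knockout, against 2.65 and 3.25 in the wild type. The claudin Cldn1 read 4.88 and 8.07 in the knockout, against 7.32 and 6.63 in the wild type, so the knockout arrays lay on both sides of the wild-type arrays. Krt5, the basal keratin, chosen after its values were seen, read 4.84 and 4.84 in the knockout, against 4.85 and 4.84 in the wild type.

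Markers of other cells moved with some arrays. The 15 macrophage and leukocyte markers averaged 4.52 and 4.49 in the knockout isolations, against 8.32 and 4.90 in wild-type isolations 1 and 2. Wild-type isolation 1 stood apart for the protease Ctss, at 3.88 and 4.23 in the knockout, against 10.07 and 4.58 in the wild type, and for the complement gene C1qb, at 3.53 and 3.37 in the knockout, against 9.46 and 3.77 in the wild type. Without wild-type isolation 1 the difference was -3.74 for Perp, -3.45 for Dsp and 4.48 for Gjb2. Without wild-type isolation 2 it was -3.94, -1.53 and 4.34. Each of these rests on 1 wild-type array, and the part of macrophages in the differences was not tested.

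The 12 smooth muscle and pericyte markers averaged 8.47 and 7.84 in the knockout isolations, against 8.52 and 8.62 in the wild-type isolations. Of their 22 probe sets, 14 were lower and 4 higher in the knockout without overlap, where 20.0% and 19.5% of all probe sets were. The smooth muscle myosin Myh11 was lower, at 6.55 and 5.48 in the knockout, against 8.71 and 9.57 in the wild type. The pericyte channel subunit Abcc9 was higher, at 7.49 and 6.48 in the knockout, against 5.49 and 3.45 in the wild type, and both its other probe sets and Kcnj8, its partner subunit, chosen after its values were seen, were higher too, by 0.93 to 2.09. Most of the list went the other way, with a negative difference for 17 of the 22 probe sets and a positive one for 5. Abcc9 and Kcnj8 therefore do not stand for the list.

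The 6 Schwann cell markers averaged 5.41 and 5.50 in the knockout isolations, against 4.84 and 4.85 in the wild-type isolations. The cadherin Cdh19 read 4.07 and 4.50 in the knockout, against 3.01 and 3.04 in the wild type, and the receptor Erbb3 4.99 and 4.66 in the knockout, against 3.88 and 3.98 in the wild type. Both were higher in each knockout array. Endothelial markers averaged 4.35 and 4.37 in the knockout, against 4.34 and 4.30 in the wild type, and the receptors Tek and Kdr differed by 0.66 and -0.25. Melanocyte markers averaged 4.63 and 4.48 in the knockout, against 4.78 and 4.55 in the wild type, and Mitf and Tyrp1 differed by -0.61 and -0.32. The part of these cells in the junction genes was not tested, and in cultures of mixed cells fewer cells of a type and less RNA per cell cannot be told apart.

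**Figure D4:**
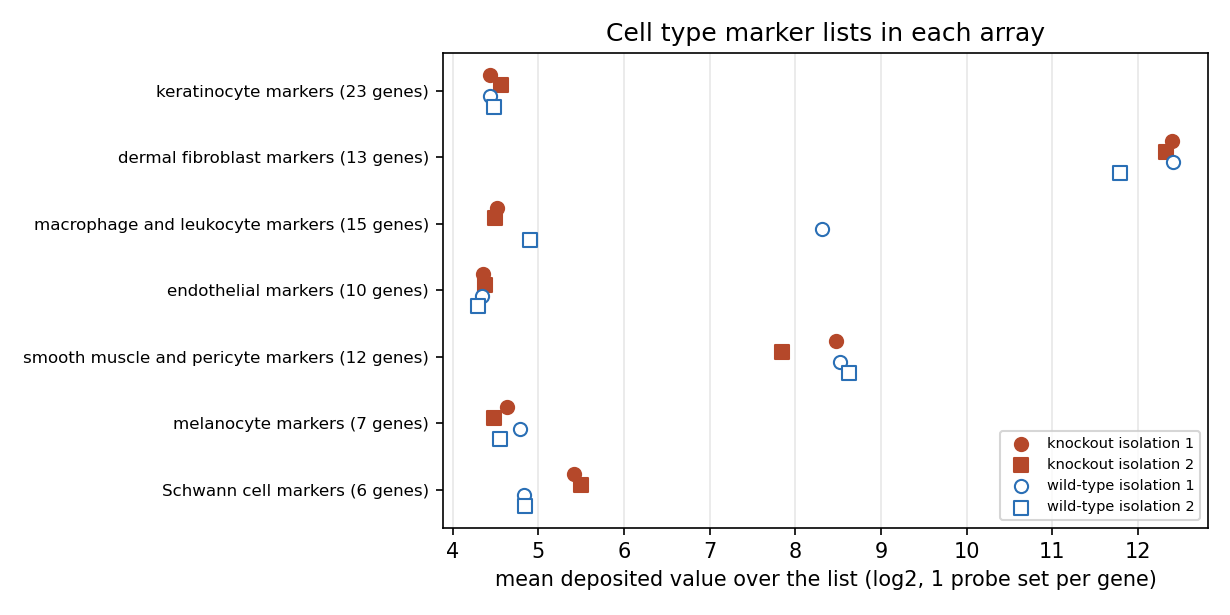
Mean deposited value (log2, horizontal axis) of each list of cell type markers in each array, with 1 probe set per gene, filled red for knockout and open blue for wild type, offset vertically by array. Keratinocyte markers lie between 4.43 and 4.56 in all arrays, and macrophage and leukocyte markers reach 8.32 in wild-type isolation 1 alone.

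The targeted gene and the sex-linked genes were read as checks. Adam9, 1416094_at, read 8.33 and 8.55 in the knockout isolations, against 11.58 and 11.70 in the wild-type isolations (difference -3.20, limma adjusted p = 0.0239). The labels do not say whether this probe set lies in the deleted part. Xist read 10.38 and 10.40 in the knockout, against 4.29 and 4.32 in the wild type, and Eif2s3y on the Y chromosome 2.75 and 2.67 in the knockout, against 9.19 and 9.31 in the wild type. The Y-linked Kdm5d read 2.36 and 2.33 in the knockout, against 7.66 and 7.06 in the wild type, and Uty 2.78 and 2.26 in the knockout, against 7.20 and 7.22 in the wild type. Sex-linked expression therefore differed between the same arrays as the genotype, and its part in the differences of Perp, Dsp and Gjb2 cannot be told apart from that of the genotype.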

How the data were processed

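The deposited table holds 1 value per probe set and array for 4 arrays, and the submitters' processing notes name Affymetrix Expression Console. Neither the version, the summary algorithm nor the log base is stated in those notes. The values the authors deposited were taken as log2, since they ran from 1.70 to 14.4. Of 45101 probe sets, 64 array controls were left out, and 34945 of the rest named 1 gene. Names were updated by Entrez identifier through a RefSeq table of GRCm38.p6 for 34741 of them. The procedure was tested on simulated data.

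All 45037 probe sets were fitted with limma 3.58.1 in R 4.3.3 (lmFit, eBayes, genotype only, no filter), and p-values were adjusted by Benjamini-Hochberg over all of them. Standard errors are limma's. The fit had 2 residual and 2.72 prior degrees of freedom per probe set. Each array is a sample, and its number limits the precision.

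The genes and lists were chosen with earlier results of these data known. Named from each list were the probe sets that passed, or otherwise the 2 genes with the largest difference by their brightest probe set. Alternatives were other filters, 3 normalizations, another prior, the isolation number as a block, 1 probe set per gene with the 40th percentile filter, and each array left out in turn. For the size of the difference only, the mean over a gene's probe sets was also taken. So was its brightest probe set without an _x_at, _s_at or _a_at ending, where it had one. Of the 7 lists of junction and related genes, members among the 10 genes were left out.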

Additional observations from a re-analysis of the deposited data

How the results depend on the processing

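The number of probe sets called by limma, 14, was 9 with a filter at the 60th percentile, 22 with median centring, 9 with 1 probe set per gene and the 40th percentile filter together, and 0 with any 1 array left out. The labels do not say whether isolation numbers pair the arrays of the genotypes. Deviations of knockout and wild-type isolation 1 from their genotype means correlated with r of 0.0695 across 27022 probe sets. The fit that took isolation number as a block called 0 probe sets. That fit has fewer residual degrees of freedom than the main one, so its count cannot show whether the arrays are paired. The number without overlap, 17795, was 11863, 8492 and 5968 with the filters at the 40th and 60th percentile and with 1 probe set per gene and the 40th percentile filter together, which test fewer features, and 29841 to 32996 with 1 array left out, where fewer values can overlap. Of the 27 junction probe sets, and of the 190 in the 7 related lists, 0 were called in every alternative. The smallest adjusted p of the junction probe sets ran from 0.103 to 0.628, and was 0.377 with the block. With 1 array left out, the differences ran from -4.96 to -2.72 for Perp, -3.45 to -1.53 for Dsp, -0.28 to 0.14 for Gja1 and 3.61 to 5.21 for Gjb2. By the mean over all probe sets of a gene, the difference was -1.64 for Dsp and -0.02 for Gja1. It was 0.09 for Dsg2, against -0.06 by the brightest probe set, and -0.26 for Dsc2, against 0.02. Without probe sets ending in _x_at, _s_at or _a_at it was -2.49 for Dsp, -0.17 for Gja1 and -0.53 for Dsc2. The list medians near 0 changed sign with 1 array left out, running from -0.05 to 0.02 for the other desmosome genes, -0.04 to 0.04 for the other connexins and pannexins and -0.10 to 0.10 for tight junction genes, while those of connexin partners (-0.06 to -0.04), intermediate filaments (-0.12 to -0.02), hemidesmosome genes (-0.60 to -0.19) and p53 targets (-0.34 to -0.18) kept theirs. The median of the other connexins and pannexins was 1.001 over the 3 probe sets above the 60th percentile. These were the probe sets of Gjc1 (1.001 and 1.01) and that of Panx1 (-0.14), so this median is the value of a single Gjc1 probe set. Low values limit Perp and Dsp in the knockout, Gjb2 in the wild type, and Dsg2, Pkp1 and 1 probe set of Dsc2 throughout, since no background is stated.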

Other observations

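Hemidesmosomes anchor keratin to the basement membrane, and several of their parts are also made by fibroblasts. Of 20 probe sets for 8 such genes, 18 had a negative difference, as had 22873 of all 45037. The median was -0.37, against -0.0027 over all probe sets. None passed limma's test (smallest adjusted p = 0.169), and 9 reached an unadjusted p under 0.05, against 9.00% of all probe sets. The genotypes did not overlap for 13, with 11 lower and 2 higher in the knockout, where 20.0% and 19.5% of all probe sets did so. Cd151, Dst and Plec each had several of the 20 probe sets, so the counts are not spread evenly over the 8 genes. Plec, which encodes the linker plectin of the same protein family as desmoplakin, read 9.41 and 9.47 in the knockout isolations, against 10.32 and 10.41 in the wild-type isolations (difference -0.92, limma adjusted p = 0.169). The tetraspanin Cd151, by its brightest probe set, read 11.06 and 10.79 in the knockout, against 11.51 and 12.35 in the wild type. The difference was -0.999, and -0.58 without wild-type isolation 2. Its probe sets 1424093_x_at, 1437670_x_at and 1451232_at differed by -1.06, -1.06 and -1.04. Probe sets 1420921_at and 1427525_at overlapped between the genotypes and differed by -0.37 and -0.08.

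Tight junction genes had a median difference of -0.03 over 42 probe sets for 20 genes, with 0 passing limma's test (smallest adjusted p = 0.154). An unadjusted p under 0.05 was reached by 3 of the 42, against 9.00% of all probe sets. F11r, the adhesion molecule JAM-A, read 6.04 and 5.99 in the knockout isolations, against 7.11 and 7.41 in the wild-type isolations (difference -1.25, SE 0.15, limma adjusted p = 0.154), and -0.15 in its other probe set, 1436374_x_at. The claudin Cldn15 differed by 0.85 in the other direction (limma adjusted p = 0.211).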
